A study of Homo sapiens with 8 samples.

Results

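RD-ES is an established Ewing sarcoma cell line, and the cells studied here stably carried a USP6 gene that doxycycline switches on. They were a pool and not 1 clone, and all groups carried the transgene. The comparison described here set the 2 libraries of cells given doxycycline and interferon alpha against the 2 libraries of untreated cells, 4 of the 8 RNA-seq libraries analysed. Cells given both agents had doxycycline for 24 h and then interferon alpha at 1000 U/mL for 24 h. The other 4 libraries came from cells given interferon alone, at the same dose and time, or doxycycline alone, with 2 libraries each. Every gene was a member: for each of 22257 gene symbols the transcript with the highest read total over the 8 libraries was taken, and the 14601 that passed a filter on low counts were tested. No doxycycline-treated cells without the transgene were analysed here, so effects of doxycycline and of USP6 cannot be told apart. For cells given doxycycline alone the labels do not state how long it was present. Whether the 2 libraries of a group came from separate cultures is not labelled, and the p-values therefore cover the spread between these libraries alone, which may be technical.

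Interferon alpha binds a receptor at the cell surface whose Janus kinases phosphorylate STAT transcription factors. These join IRF9 and bind a response element in the promoters of interferon-stimulated genes, which encode antiviral proteins and much of the machinery of antigen presentation. NF-kB transcription factors, held in the cytoplasm by inhibitors such as NFKBIA, act beside interferon-driven factors at the promoters of many chemokines. USP6 encodes an oncogenic protease that removes ubiquitin, known from bone and soft tissue tumours in which rearrangement places it under a strong promoter.

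The chosen transcripts held between 9304569 and 11984196 reads per library, so that 3 reads were worth 0.2503 to 0.3224 CPM (read counts brought to a common library size). Both libraries of every group differed beyond sampling noise (chi-square divided by its degrees of freedom, 3.91 to 8.05), so none was counted as a duplicate. Some libraries also tracked GC content. Over genes, taken as a description since genes are no replicates, Spearman's rho between a library's departure from the mean of each gene and the GC content of its transcript was 0.58 and 0.12 in untreated replicates 1 and 2, and -0.64 and 0.05 in replicates 1 and 2 with both treatments, called combined replicates here. Untreated replicate 1 and combined replicate 1 thus stood apart, in opposite directions. In the tenth of tested genes with the highest GC content (median 64.1%) the median log2 change was -0.996 between the libraries numbered 1 and -0.11 between those numbered 2. In the tenth with the lowest GC content (median 37.3%) these values were 0.26 and 0.01. Counts and changes are therefore also given after a correction for GC content and transcript length where it ended a call or moved a list's count or a named gene's fold by over 1.5 times.

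**Figure D1:**
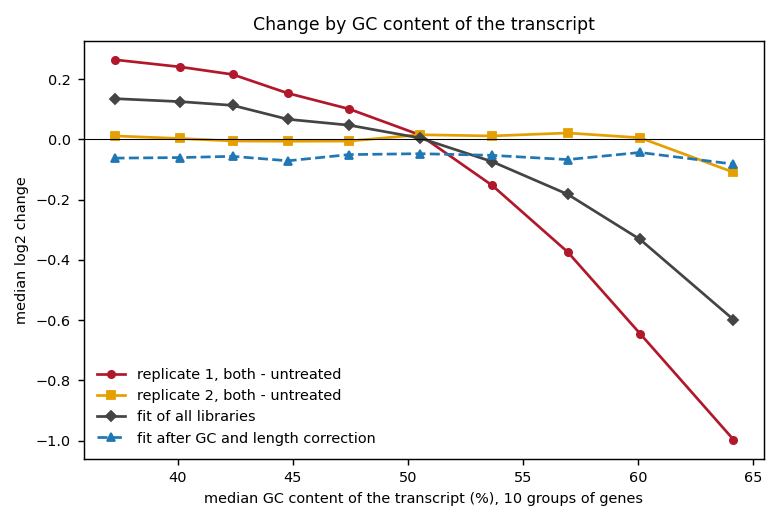
Median log2 change between both treatments and untreated cells (vertical axis) in 10 groups of genes ordered by the GC content of the transcript (horizontal axis, percent). In the libraries numbered 1 the median falls from 0.26 to -0.996, in those numbered 2 it lies between -0.11 and 0.02, and after the correction for GC content and length it lies between -0.08 and -0.04.

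Markers of Ewing sarcoma were read, but the identity of the cell line was not tested with them. The Ewing sarcoma genes FLI1, NKX2-2, STEAP1 and CCND1 were read in all 8 libraries. CD99, the surface glycoprotein used to diagnose the tumour, was counted at only between 2.22 and 3.06 CPM. Why so few reads were counted for CD99 was not tested, and the aligner and counting method are not known. Markers of other cell types were read as well. Of 12 markers of T and NK cells CD2, CD8B and GZMB had 0 reads in every library, while CD4 was read at between 3.40 and 5.26 CPM, and their summed level was 8.64 and 6.17 CPM in untreated cells and 7.36 and 7.28 with both treatments. Of 11 myeloid markers TYROBP had 0 reads in every library and AIF1 was read at between 2.77 and 4.84 CPM, and their summed level was 9.40 and 6.98 CPM in untreated cells and 10.8 and 9.45 with both. The summed level of the 5 B cell markers was 19.7 and 17.6 CPM in untreated cells and 13.2 and 15.2 with both, most of it CD79A and CD79B, and that of the 7 endothelial markers was 2.18 and 1.07 and 2.12 and 0.977. The 9 fibroblast markers summed to 237 and 197 CPM in untreated cells and 165 and 192 with both, led by THY1, and the 7 epithelial markers to 119 and 116 and 109 and 122, led by KRT18 at between 104 and 119 CPM. Over all genes tested 7.12% were called higher and 6.73% lower. Of the 9 fibroblast markers 1 rose and 3 fell, and of 4 B cell markers tested 1 fell, or 0 after the correction. The part of other cells in these levels was not tested. Of the interferon genes none had enough reads to be tested: IFNB1, the interferon beta gene, was at 0 reads without treatment and at 3 over the libraries of both treatments.

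At an edgeR adjusted p under 0.05, 2023 of 14601 genes (13.9%) were called between both treatments and untreated cells, with 1040 higher (7.12%) and 983 lower (6.73%). The higher side held the large changes: 376 genes rose at least 2-fold, 195 at least 4-fold and 69 at least 16-fold, against 278, 17 and 0 that fell by as much. Of the 1040 genes that rose, 407 (39.1%) kept the call without each of the 8 libraries in turn, and of the 983 that fell, 139 (14.1%) did. The transcripts of genes that fell had a median GC content of 58.7%, those of genes that rose 44.1%, and all tested 48.8%. Corrected for GC content and length, 1156 genes were called higher and 1980 lower. Without untreated replicate 1 and combined replicate 1 together these counts were 594 and 340. They were 531 and 331 without untreated replicate 1 alone, 553 and 465 without untreated replicate 2, 523 and 189 without combined replicate 1, 828 and 531 without interferon replicate 2, 839 and 560 without interferon replicate 1, and 1200 and 1389 without combined replicate 2.

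**Figure D2:**
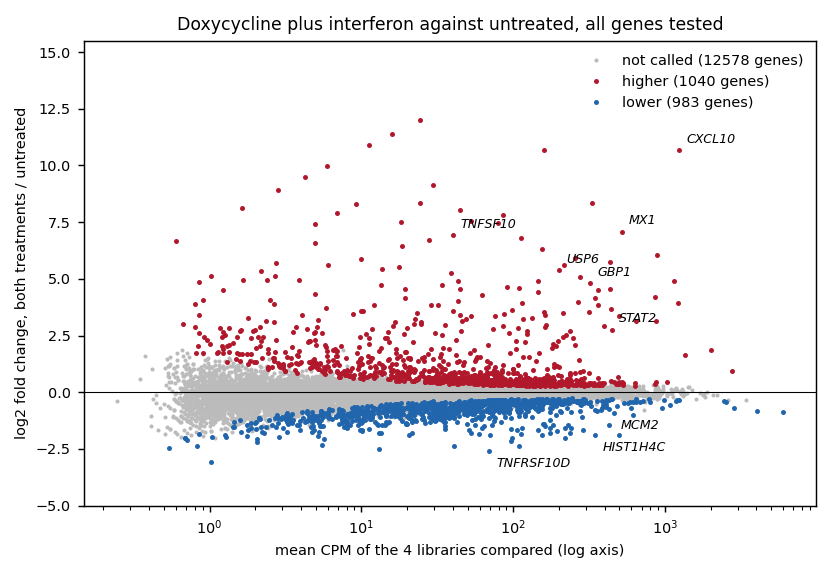
Log2 fold change of each tested gene (vertical axis) against its mean CPM over the 4 libraries compared (log axis). The 1040 genes called higher reach far larger changes than the 983 called lower; for genes with 0 untreated reads the height is a fitted value and not a bound.

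USP6 itself stood at 9.88 and 8.77 CPM in the untreated libraries and at 409 and 377 with both treatments. It rose by 5.40 ± 0.11 on the log2 scale (edgeR adjusted p = 1.8e-10). The libraries of both treatments lay far above the untreated ones and below those of doxycycline alone (569 and 558 CPM), a difference of -0.52 ± 0.08 that passed the test (edgeR adjusted p = 0.0044). Parts of USP6 are near-identical to USP32 and to the TBC1D3 genes, which makes its level uncertain, since counting could divide reads among them. As in all values from bulk samples here, more cells expressing a gene and more RNA per cell cannot be told apart.

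Chemokines that attract T cells and monocytes held the highest fold changes, and every chemokine that rose was also higher than with either treatment alone. CXCL10, which binds CXCR3 on activated T cells, stood at 1.04 and 1.97 CPM in untreated cells, 51.0 and 69.6 with interferon alone, 34.9 and 27.7 with doxycycline alone and 2785 and 2176 with both treatments. The 4 groups did not overlap, and both single treatments lay between the untreated and the combined libraries. Its log2 change with both was 10.66 ± 0.28 (edgeR adjusted p = 7.4e-10), or 5.36 ± 0.20 against interferon alone (edgeR adjusted p = 8.6e-08) and 6.31 ± 0.21 against doxycycline alone (edgeR adjusted p = 1.1e-08). The promoters of CXCL10, of its neighbour CXCL9 and of RTP4, a chaperone of receptor transport induced by interferon, are shown because these genes were among the 15 highest and their promoters held the core of the interferon-stimulated response element. That of the antiviral gene MX1 is added as the next named gene by fold change whose listed promoter held the core. That of the histone gene HIST2H3D is added as a gene that fell and yet held a match. All 5 were thus chosen for holding a match, which is no result about them. Each runs from 250 bases before to 50 after a start that RefSeq lists for the gene, on the gene's strand, on GRCh38.p14. Whether these cells used that start was not tested, so a match need not lie in the promoter they used. Capitals mark GAAANNGAAA on either strand, N being any base, and the kB decamer bound by NF-kB; MX1 had a kB decamer and a GAS element as well.
CXCL10: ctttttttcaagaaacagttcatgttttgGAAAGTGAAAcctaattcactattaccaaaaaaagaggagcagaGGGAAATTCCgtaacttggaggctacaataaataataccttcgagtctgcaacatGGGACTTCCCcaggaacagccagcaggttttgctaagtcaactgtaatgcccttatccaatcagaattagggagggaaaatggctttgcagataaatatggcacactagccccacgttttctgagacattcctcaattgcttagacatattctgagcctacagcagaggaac (chr4:76023448-76023747, minus strand)
RTP4: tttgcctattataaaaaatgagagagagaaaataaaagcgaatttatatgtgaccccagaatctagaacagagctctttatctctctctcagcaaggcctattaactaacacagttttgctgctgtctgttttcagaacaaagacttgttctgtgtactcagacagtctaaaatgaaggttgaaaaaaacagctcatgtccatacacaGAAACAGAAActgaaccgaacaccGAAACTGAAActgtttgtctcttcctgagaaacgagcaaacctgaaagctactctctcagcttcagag (chr3:187368135-187368434, plus strand)
CXCL9: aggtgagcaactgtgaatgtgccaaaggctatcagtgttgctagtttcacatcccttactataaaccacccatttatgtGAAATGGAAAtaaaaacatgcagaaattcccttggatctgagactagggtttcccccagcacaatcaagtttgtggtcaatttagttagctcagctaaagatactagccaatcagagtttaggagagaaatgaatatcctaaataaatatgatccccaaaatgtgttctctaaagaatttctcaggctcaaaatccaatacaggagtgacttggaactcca (chr4:76007460-76007759, minus strand)
MX1: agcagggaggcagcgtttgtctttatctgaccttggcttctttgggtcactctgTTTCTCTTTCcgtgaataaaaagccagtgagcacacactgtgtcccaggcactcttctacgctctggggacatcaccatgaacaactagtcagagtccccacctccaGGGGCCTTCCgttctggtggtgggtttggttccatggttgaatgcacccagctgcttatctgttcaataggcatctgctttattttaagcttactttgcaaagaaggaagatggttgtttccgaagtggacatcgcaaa (chr21:41431800-41432099, plus strand)
HIST2H3D: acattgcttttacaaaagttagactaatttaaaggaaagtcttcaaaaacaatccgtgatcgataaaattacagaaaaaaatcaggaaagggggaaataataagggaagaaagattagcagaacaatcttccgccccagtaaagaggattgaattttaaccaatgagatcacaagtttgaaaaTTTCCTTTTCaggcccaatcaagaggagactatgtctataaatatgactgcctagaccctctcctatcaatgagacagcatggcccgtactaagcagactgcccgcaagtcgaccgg (chr1:149813644-149813943, minus strand)

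CXCL10 had 1 match to the response element core and 2 to the kB decamer, and CXCL9 had 1 match to the core. Of the 15 highest genes 10 had a promoter listed by RefSeq. Of these 10, 6 held the kB decamer, 3 the core and 3 the GAS element. Over the promoters of tested genes called at least 4-fold higher 39.6% (57 of 144) held the core, over all genes called higher 12.1%, over genes called lower 1.78%, over all genes tested 3.13%, and over all 35116 promoters listed by RefSeq 3.57%. For TTCNNNGAA, the GAS element bound by STAT dimers, the same shares were 21.5%, 10.3%, 4.46%, 6.52% and 7.66%, and for the kB decamer 25.7%, 17.7%, 13.4%, 12.8% and 11.3%. The core and the GAS element can share bases. TGATGNAA, the core of the amino acid response element bound by ATF4, was held by 6.94%, 4.36%, 1.66%, 2.09% and 3.62%. A match describes these letters in this window and does not show that a factor was bound. The transcripts of genes called higher and lower also differed in GC content (medians of 44.1% and 58.7%). Whether base composition accounts for the differences in these shares was not tested.

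CXCL11, a further ligand of CXCR3, stood at 0.190 and 0.179 CPM without treatment and 365 and 272 with both, while the single treatments gave 3.99 and 3.35 with interferon and 3.0 and 3.14 with doxycycline. It rose by 10.67 ± 0.27 (edgeR adjusted p = 6e-10). CXCL9, the third ligand of CXCR3, was 639-fold higher by reads, 1127 against 2 (exact 95% binomial interval of the ratio 177 to 5286, 658-fold when untreated replicate 1 was left out and 620.4-fold when untreated replicate 2 was left out, edgeR adjusted p = 4.6e-09). With interferon alone it stood at 0.399 and 0.574 CPM and with doxycycline alone at 0.751 and 0.850, against 64.5 and 52.9 with both. CCL8, which attracts monocytes, had 0 reads in untreated cells and 54.0 and 42.6 CPM with both treatments, at least 351-fold above untreated cells set at 3 reads in all (181 and 170.3 when untreated replicate 1 or 2 was left out; edgeR adjusted p = 1.7e-07). CCL20, the ligand of CCR6, also had 0 untreated reads and stood at 6.15 and 5.21 CPM, at least 41.2-fold above untreated cells set at 3 reads in all (21.2 and 20.0 when untreated replicate 1 or 2 was left out; edgeR adjusted p = 3.3e-05). Of 24 chemokines listed 12 had enough reads to be tested, of which 9 rose, 0 fell and 3 were not called. A gene could pass the filter through the combined libraries alone. CCL8 did so, with 928 reads against 0 untreated, 1 with interferon and 7 with doxycycline. The share that rose and the median of the 12 therefore do not describe all 24. The median log2 change of the 12 was 6.99, or 6.30 if genes with 0 untreated reads are set to their bound, beside -0.02 over all genes tested. All 9 were higher than with interferon alone, where 1.07% of tested genes were called higher, and higher than with doxycycline alone, where 2.42% were. The summed level of the list was 11.2 and 12.7 CPM in the untreated libraries, 69.2 and 84.3 with interferon, 54.1 and 47.3 with doxycycline and 3329 and 2604 with both.

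**Figure D3:**
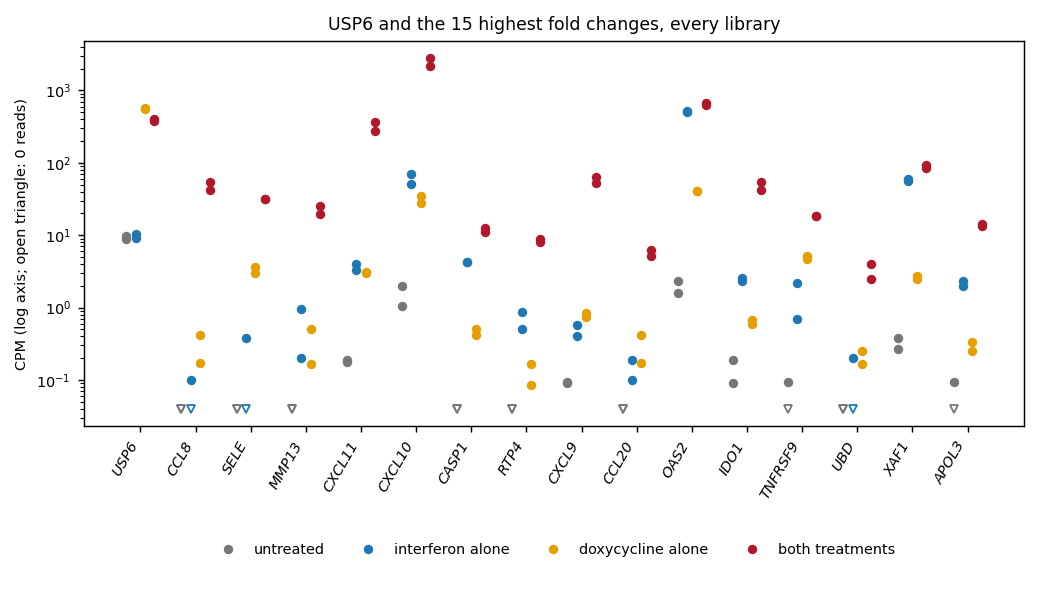
Level in every library (CPM, log axis; open triangles mark 0 reads) of USP6 and of the 15 genes with the highest fold change, in 4 groups of 2 libraries. All 15 lie highest with both treatments; CXCL10 reaches 2785 and 2176 CPM, while OAS2 lies close to its level with interferon alone.

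Other genes with the highest fold changes encode adhesion, matrix and cell death proteins. SELE, the adhesion molecule E-selectin and a target of NF-kB, had 0 reads in untreated cells, 0 and 0.383 CPM with interferon, 3.59 and 2.97 with doxycycline and 31.9 and 31.3 with both. It was at least 228-fold above untreated cells set at 3 reads in all (118 and 111 when untreated replicate 1 or 2 was left out; edgeR adjusted p = 1.1e-06). MMP13, a collagenase, had 0 untreated reads and stood at 25.4 and 19.3 CPM with both, at least 163-fold above untreated cells set at 3 reads in all (83.7 and 78.9 when untreated replicate 1 or 2 was left out; edgeR adjusted p = 7.2e-06). Over all genes tested 7.12% were called higher and 6.73% lower. Of 19 metalloproteases and their inhibitors listed 13 had enough reads to be tested, and 1 other gene fell and none other rose. A gene could pass the filter through the combined libraries alone, so the 13 do not stand for all 19. Those that rose numbered 2 after the correction. The count that fell was 0 without untreated and combined replicates 1 and between 0 and 1 over the libraries left out in turn. CASP1, the caspase that processes interleukin 1 beta, stood at 4.29 and 4.30 CPM with interferon alone and 12.7 and 11 with both, at least 85.9-fold above untreated cells set at 3 reads in all (44.2 and 41.7 when untreated replicate 1 or 2 was left out; edgeR adjusted p = 1.1e-06). RTP4 was at least 61.3-fold above untreated cells set at 3 reads in all (31.5 and 29.7 when untreated replicate 1 or 2 was left out; edgeR adjusted p = 6.3e-06). UBD, a ubiquitin-like modifier also called FAT10, stood at 4.03 and 2.5 CPM, at least 23.8-fold above untreated cells set at 3 reads in all (12.3 and 11.6 when untreated replicate 1 or 2 was left out; edgeR adjusted p = 0.00065). The untreated libraries held 0 reads of each of these genes, so no upper limit to their fold change could be given.

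TNFRSF9, the co-stimulatory receptor 4-1BB, stood at 0.0950 and 0 CPM untreated, 0.698 and 2.20 with interferon, 5.09 and 4.76 with doxycycline and 18.2 and 18.4 with both. It was 397-fold higher by reads, 350 against 1 (exact 95% binomial interval of the ratio 70.8 to 15731, at least 68.2-fold when untreated replicate 1 was left out and 193-fold when untreated replicate 2 was left out, edgeR adjusted p = 3e-06). IDO1, the tryptophan-degrading enzyme that restrains T cells, stood at 0.190 and 0.0895 CPM untreated and 54.9 and 42.7 with both, and was 355-fold higher by reads, 938 against 3 (exact 95% binomial interval of the ratio 121 to 1723, 548-fold when untreated replicate 1 was left out and 258-fold when untreated replicate 2 was left out, edgeR adjusted p = 1.4e-08). Interferon alone gave 2.29 and 2.58 CPM and doxycycline alone 0.667 and 0.595, below both libraries of the combined treatment. LGALS9, the immune lectin galectin 9, rose by 5.62 ± 0.41 (5.01 without untreated replicate 1 and 6.80 without untreated replicate 2) and CD47, which signals to macrophages not to engulf a cell, by 0.98 ± 0.12, from 92.5 and 90.7 to 198 and 162 CPM. Of 17 checkpoint and suppressor genes listed 11 had enough reads to be tested. Of these 11, 4 rose and 7 were not called, beside 7.12% called higher over all genes tested. A gene could pass the filter through the combined libraries alone, so the 11 do not stand for all 17.

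Antiviral effectors rose almost as a whole. OAS2, which makes the activator of RNase L, stood at 1.61 and 2.33 CPM untreated, 515 and 511 with interferon, 40.5 and 40.8 with doxycycline and 679 and 629.7 with both, a log2 change of 8.36 ± 0.14 (edgeR adjusted p = 6.1e-11). MX1, a dynamin-like GTPase that blocks virus replication, stood at 8.26 and 6.98 CPM untreated, 899 and 928 with interferon and 1071 and 990.1 with both. It rose by 7.08 ± 0.12 (edgeR adjusted p = 6.1e-11). Its relative MX2 rose by 7.48 ± 0.16 and IFI6, an interferon-induced membrane protein, by 6.06 ± 0.12. XAF1, a pro-apoptotic partner of the inhibitor XIAP, rose by 8.06 ± 0.22. For OAS2, MX1 and IFI6 the level with both treatments was not called different from that with interferon alone (differences of 0.35 ± 0.09, 0.17 ± 0.09 and 0.14 ± 0.09), whereas MX2 and XAF1 were higher than with interferon by 0.73 ± 0.09 and 0.61 ± 0.12 (edgeR adjusted p = 0.0019 and 0.028). Of 45 antiviral effectors tested 43 rose and 2 were not called, with a median of 4.14. Of the 45, 12 were higher than with interferon alone (1.07% of all genes tested). Their summed level went from 2229 and 2089.7 CPM in the untreated libraries to 20934 and 20322 with both. All 7 tested genes of ISG15 conjugation, the attachment of an interferon-induced ubiquitin-like protein, rose, among them its ligase HERC5 (2.14 ± 0.11), the related HERC6 (4.64 ± 0.14), its conjugating enzyme UBE2L6 (3.51 ± 0.11) and USP18, which removes ISG15 and also restrains the receptor (2.97 ± 0.15).

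Most tested transcription factors of the response rose, and so did some receptor and Janus kinase genes. STAT2, phosphorylated at the interferon receptor, stood at 129 and 100.4 CPM untreated, 603 and 530.1 with interferon, 206 and 209 with doxycycline and 777 and 776 with both, a log2 change of 2.76 ± 0.12 (edgeR adjusted p = 4.3e-08). IRF9, the DNA-binding subunit beside it, rose by 3.57 ± 0.15. IRF1, a factor that acts at antigen presentation and chemokine genes, stood at 4.84 and 4.92 CPM untreated, 10.8 and 12.7 with interferon, 5.17 and 7.39 with doxycycline and 37.3 and 41.2 with both. The combined libraries lay above all others, and IRF1 was higher than with interferon alone by 1.74 ± 0.18 (edgeR adjusted p = 0.00047) and than with doxycycline alone by 2.64 ± 0.19 (edgeR adjusted p = 4.6e-06). STAT3 rose by 0.52 ± 0.08. Of 14 STAT and IRF genes tested 9 rose and 5 were not called (median 1.23). Over all genes tested 7.12% were called higher, and of 10 receptor and Janus kinase genes 4 rose (median 0.34). Genes that rose numbered 1 without untreated and combined replicates 1, 1 with untreated replicate 1 left out, 2 with untreated replicate 2 left out and 1 with combined replicate 1 left out. JAK3 rose by 1.21 ± 0.22, while JAK1, the kinase bound to the receptor chain IFNAR2, stood at 824 and 934 CPM untreated and 977 and 912 with both and was not called. Among 9 genes listed as feedback inhibitors 3 rose, USP18, TRIM21 (3.22 ± 0.14) and IFIT5 (2.69 ± 0.13), a relative of the antiviral IFIT genes. Whether IFIT5 acts as an inhibitor here was not tested. SOCS3, PIAS1, PTPN1, PTPN2, PTPN6 and PTPN11 were not called, and SOCS1, SOCS2 and CISH were not tested.

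Among 24 sensors of foreign nucleic acid and their adaptors, cytosolic and other, 20 had enough reads to be tested. Of these 20, 13 rose and 7 were not called, beside 7.12% called higher over all genes tested. A gene could pass the filter through the combined libraries alone, so the 20 do not stand for all 24. Members that rose numbered 8 with untreated replicate 1 left out and 8 with combined replicate 1 left out. DDX58, the RNA sensor RIG-I, went from 31.4 and 30.6 to 756 and 639 CPM, a change of 4.49 ± 0.12, and IFIH1, the RNA sensor MDA5, rose by 3.52 ± 0.12. IFI16, a DNA sensor, rose by 2.72 ± 0.09 and the helicase ZNFX1 by 1.74 ± 0.09. DDX58 was also higher than with interferon alone, by 0.59 ± 0.10 (edgeR adjusted p = 0.018). Among PARP, PML and SP100 genes 11 of 16 rose, with a median of 1.92. As for those that fell, their number was 2 after the correction. The genes that rose included PARP9 (3.53 ± 0.10), its partner ligase DTX3L (2.91 ± 0.13), the ADP-ribosyltransferase PARP14 (3.14 ± 0.11) and the nuclear body protein SP110 (2.58 ± 0.09).

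Guanylate-binding proteins, GTPases that attack intracellular pathogens, rose in 5 of 6 cases. The combined level exceeded each single treatment in 5 of the 6. Over all genes tested 1.07% were higher than with interferon alone and 2.42% than with doxycycline alone. GBP1 stood at 23.9 and 20.0 CPM untreated, 154 and 174 with interferon, 57.5 and 54.7 with doxycycline and 657 and 577 with both. It rose by 4.81 ± 0.13 (edgeR adjusted p = 7e-10), and was higher than with interferon alone by 1.91 ± 0.11 (edgeR adjusted p = 2.7e-06). GBP2 stood at 2.75 and 2.77 CPM untreated, 8.38 and 11.9 with interferon, 12.1 and 10.9 with doxycycline and 86.6 and 80.3 with both, and rose by 4.91 ± 0.20. GBP3 rose by 4.73 ± 0.18 and GBP4 by 4.29 ± 0.18. The test of the difference from interferon alone compares those libraries only, and whether these genes exceeded it by more than antiviral effectors did was not tested. Of 6 apolipoprotein L genes 5 rose, APOL6 by 3.64 ± 0.16, and APOL3 was 299.6-fold higher by reads, 264 against 1 (exact 95% binomial interval of the ratio 53.3 to 11876, at least 51.4-fold when untreated replicate 1 was left out and 145-fold when untreated replicate 2 was left out, edgeR adjusted p = 4.9e-07).

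Most tested genes of MHC class I presentation rose. Class II genes were mostly not called, some of them with few reads, such as CD74 (21 in untreated cells and 17 with both treatments). TAP1, which pumps peptides into the endoplasmic reticulum, stood at 14.5 and 11 CPM untreated, 143 and 150.3 with interferon, 27.8 and 30.6 with doxycycline and 273 and 280.3 with both, a log2 change of 4.44 ± 0.13 (edgeR adjusted p = 1e-09). HLA-B, a class I heavy chain, went from 51.4 and 41.8 to 645 and 712 CPM (3.87 ± 0.13), and HLA-E, a ligand of NK receptors, rose by 2.83 ± 0.13. The HLA genes are similar in sequence, so reads could be split among them. All 3 were higher than with interferon alone, by 0.91 ± 0.10, 0.62 ± 0.11 and 0.60 ± 0.11 (edgeR adjusted p = 0.00097, 0.019 and 0.026). Of 17 class I genes tested 14 rose, with a median of 2.27. Among the induced proteasome subunits and the proteasome activator 5 of 7 rose. PSMB9, a catalytic subunit of the immunoproteasome, went from 0.285 and 0.0895 to 34.7 and 37.4 CPM (7.52 ± 0.37; 8.47 without untreated replicate 1 and 6.92 without untreated replicate 2), PSMB8 rose by 3.36 ± 0.17, and the activator subunits PSME1 and PSME2 by 1.36 ± 0.08 and 1.38 ± 0.12. Over all genes tested 7.12% were called higher and 6.73% lower. Of 31 constitutive proteasome subunits 1 rose, 5 fell and 25 were not called. The number that rose was 0 without untreated and combined replicates 1 and between 0 and 3 over the libraries left out in turn. Those that fell numbered 10 after the correction, 3 without untreated and combined replicates 1, 1 with untreated replicate 2 left out, 3 with interferon replicate 1 left out, 3 with interferon replicate 2 left out and 1 with combined replicate 1 left out. Of 10 class II genes 1 rose, 1 fell and 8 were not called, and neither call held without each library in turn. The count that rose was 2 after the correction, 2 without untreated and combined replicates 1 and between 0 and 1 over the libraries left out in turn. Genes that fell numbered 0 without untreated and combined replicates 1 and between 0 and 1 over the libraries left out in turn.

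Most NF-kB genes tested rose, and some of them stood above their level with either treatment alone. NFKBIA, the inhibitor that NF-kB itself induces, stood at 26.3 and 26.3 CPM untreated, 53.5 and 55.8 with interferon, 64.4 and 63.2 with doxycycline and 159.9 and 163 with both. None of the 4 groups overlapped, and the change with both was 2.62 ± 0.09 (edgeR adjusted p = 6.1e-09), 1.56 ± 0.09 above interferon alone and 1.34 ± 0.09 above doxycycline alone (edgeR adjusted p = 2.7e-06 and 1.7e-06). ICAM1, the adhesion molecule that T cells bind, went from 6.46 and 3.58 to 77.7 and 85.6 CPM, a change of 4.03 ± 0.24. BIRC3, an inhibitor of apoptosis proteins in the TNF receptor complex, rose by 2.61 ± 0.19, and TNFAIP3, the deubiquitinase A20 that ends NF-kB signalling, by 2.63 ± 0.27, from 1.14 and 1.52 to 7.56 and 9.12 CPM. Of 23 NF-kB subunits, inhibitors and targets 15 rose and 8 were not called (median 1.12). Of the 23, 12 were higher than with interferon alone (1.07% of all genes tested) and 10 than with doxycycline alone (2.42%). The deubiquitinases related to USP6 or acting in these pathways included TNFAIP3. Of the 19 tested 6 rose and 0 fell, beside 7.12% called higher and 6.73% lower over all genes tested. Those that rose included USP25 (0.72 ± 0.09), USP15 (0.60 ± 0.10) and CYLD, which removes ubiquitin chains from NF-kB regulators (0.62 ± 0.11). Without untreated and combined replicates 1 USP15 (0.39) and CYLD (0.55) lost their calls. Members that rose numbered 2 without untreated and combined replicates 1. As for those that fell, their number was 3 after the correction, 1 without untreated and combined replicates 1 and up to 2 over the libraries left out in turn.

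Most cytokine and complement genes tested rose. TNF, itself an inducer of NF-kB, stood at 0.190 and 0.358 CPM untreated, 0.499 and 0.0956 with interferon, 1.17 and 1.87 with doxycycline and 4.64 and 4.89 with both, and rose by 4.05 ± 0.49 (edgeR adjusted p = 0.00032). TNFSF13B, the B cell survival factor BAFF, stood at 0.665 and 0.716 CPM untreated, 0.598 and 1.34 with interferon, 0.584 and 0.425 with doxycycline and 7.86 and 7.06 with both. The 6 other libraries lay at or below 1.34 CPM and both combined ones far above, with a change of 3.41 ± 0.35, 2.92 ± 0.33 above interferon and 3.85 ± 0.36 above doxycycline (edgeR adjusted p = 0.0011 and 5.4e-05). IL32, an inflammatory cytokine, rose by 2.89 ± 0.31 (3.55 without untreated and combined replicates 1) and CSF1, the growth factor of macrophages, by 2.20 ± 0.30. Of 25 cytokine genes listed 11 had enough reads to be tested, of which 7 rose and 4 were not called. A gene could pass the filter through the combined libraries alone, so this share does not describe all 25. Of 11 complement genes 8 rose and 3 were not called (median 1.76). C3, the central complement component, went from 2.09 and 1.07 to 35.0 and 39.6 CPM (4.56 ± 0.24; 5.19 without untreated and combined replicates 1), SERPING1, the inhibitor of the first component, rose by 2.09 ± 0.12, and the protease C1S by 2.89 ± 0.30. In the summed level of complement the groups did not overlap, with 404 and 372 CPM untreated, 587 and 544 with interferon, 508 and 484 with doxycycline and 876 and 813 with both.

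The death ligand TRAIL rose while one of its decoy receptors fell. TNFSF10, which encodes TRAIL, stood at 0.760 and 0.537 CPM untreated, 4.29 and 4.21 with interferon, 1.75 and 1.70 with doxycycline and 91.8 and 68.1 with both. It rose by 6.93 ± 0.25 (edgeR adjusted p = 8e-09), and exceeded interferon alone by 4.23 ± 0.19 (edgeR adjusted p = 7.2e-07). TNFRSF10D, a decoy receptor whose truncated death domain does not signal, stood at 118 and 121 CPM untreated, 17.1 and 17.8 with interferon, 124 and 114 with doxycycline and 18.8 and 21.1 with both. The libraries given interferon, alone or combined, lay far below the other 4, and the change with both was -2.58 ± 0.11 (edgeR adjusted p = 2.3e-08). TNFRSF10B, the signalling receptor DR5, rose by 0.59 ± 0.09, from 191 and 172 to 271 and 274 CPM, and CASP8, the caspase it recruits, by 0.64 ± 0.10. The receptor DR4, TNFRSF10A, stood at 16.8 and 14.4 and 15.8 and 18.8 CPM and was not called. Over all genes tested 7.12% were called higher and 6.73% lower. Of 14 genes in the list 7 rose, 1 fell and 6 were not called. The number that rose was 4 without untreated and combined replicates 1, 4 with untreated replicate 1 left out and 4 with combined replicate 1 left out.

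Among caspases, inflammasome and necroptosis genes 5 of 15 rose and 10 were not called, beside 7.12% higher and 6.73% lower over all genes tested. Those that fell numbered 1 after the correction. CASP4, the caspase that senses lipopolysaccharide, rose by 1.55 ± 0.12, and MLKL, the executor of necroptosis, by 1.11 ± 0.16. CARD16, a CARD-only relative of CASP1, was 46.0-fold higher by reads, 81 against 2 (exact 95% binomial interval of the ratio 12.3 to 386, at least 15.8-fold when untreated replicate 1 was left out and 22.3-fold when untreated replicate 2 was left out, edgeR adjusted p = 0.0002). CARD16 and CASP1 are similar in sequence, so their reads could be split. Of 16 genes of the BCL2 family and inhibitors of apoptosis 4 rose, 1 fell and 11 were not called. The count that rose was 2 without untreated and combined replicates 1, 2 with untreated replicate 1 left out and 2 with combined replicate 1 left out. Genes that fell numbered 3 after the correction, 0 without untreated and combined replicates 1 and between 0 and 1 over the libraries left out in turn. PMAIP1, the BH3-only protein NOXA, rose by 1.12 ± 0.09, from 48.2 and 47.9 to 107 and 102 CPM, and BIRC2, a ubiquitin ligase at the TNF receptor, by 1.11 ± 0.11. Both were higher than with interferon alone, by 0.60 ± 0.09 and 0.89 ± 0.10 (edgeR adjusted p = 0.0088 and 0.0013). Of 13 p53 targets 2 rose and 2 fell, beside 7.12% called higher and 6.73% lower over all genes tested. Of the risers BTG2 (0.65 ± 0.11) held its call whichever library was left out. Members that rose numbered between 1 and 2 over the libraries left out in turn. As for those that fell, their number was 0 without untreated and combined replicates 1 and between 0 and 2 over the libraries left out in turn.

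Most genes of the amino acid response driven by ATF4 rose. ATF3, a stress-induced transcription factor, went from 5.41 and 5.55 to 34.7 and 30.6 CPM, a change of 2.57 ± 0.18 (edgeR adjusted p = 2.6e-06), and exceeded interferon alone by 1.5 ± 0.17 and doxycycline alone by 1.63 ± 0.17 (edgeR adjusted p = 0.00082 and 0.0001). ASNS, asparagine synthetase, stood at 53.3 and 50.5 CPM untreated, 82.1 and 95.2 with interferon, 95.4 and 96.0 with doxycycline and 118 and 121 with both. It rose by 1.20 ± 0.10. CHAC1, which degrades glutathione, rose by 2.68 ± 0.27 and DDIT3, the transcription factor CHOP, by 1.01 ± 0.11. Of 27 genes in the list 18 rose and 9 were not called (median 0.59). Of 20 cytosolic aminoacyl-tRNA synthetases 10 rose and 10 were not called. The number that rose was 6 without untreated and combined replicates 1 and 4 with untreated replicate 1 left out. Those that fell numbered 2 after the correction and up to 2 over the libraries left out in turn. WARS, the tryptophan enzyme that interferon gamma is known to induce, stood at 55.1 and 62.3 CPM untreated, 73.9 and 93.1 with interferon, 61.1 and 53.8 with doxycycline and 173 and 170.1 with both, and rose by 1.55 ± 0.12. CARS rose by 0.77 ± 0.11, GARS by 0.59 ± 0.09 and YARS by 0.56 ± 0.08, enzymes that charge cysteine, glycine and tyrosine tRNA. Of 15 endoplasmic reticulum chaperones 2 rose and 2 fell, beside 7.12% called higher and 6.73% lower over all genes tested. The count that rose was 0 without untreated and combined replicates 1 and between 0 and 3 over the libraries left out in turn. Genes that fell numbered 0 after the correction, 0 without untreated and combined replicates 1 and between 0 and 2 over the libraries left out in turn. Of 11 NRF2 targets 1 rose. Members that rose numbered 0 after the correction, 0 without untreated and combined replicates 1 and between 0 and 1 over the libraries left out in turn. As for those that fell, their number was 1 after the correction and up to 2 over the libraries left out in turn. None of the calls on chaperones and NRF2 targets held without each library in turn.

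Immediate early genes rose in 5 of 17 cases, beside 7.12% called higher over all genes tested. JUN, a subunit of AP-1, went from 13.0 and 9.04 to 28.6 and 32.6 CPM (1.47 ± 0.18), and exceeded interferon alone by 1.29 ± 0.18 (edgeR adjusted p = 0.0044), and the transcription factor KLF10 rose by 1.09 ± 0.15. The number that rose was 10 after the correction, 3 with untreated replicate 2 left out and 2 with combined replicate 1 left out.

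**Figure D4:**
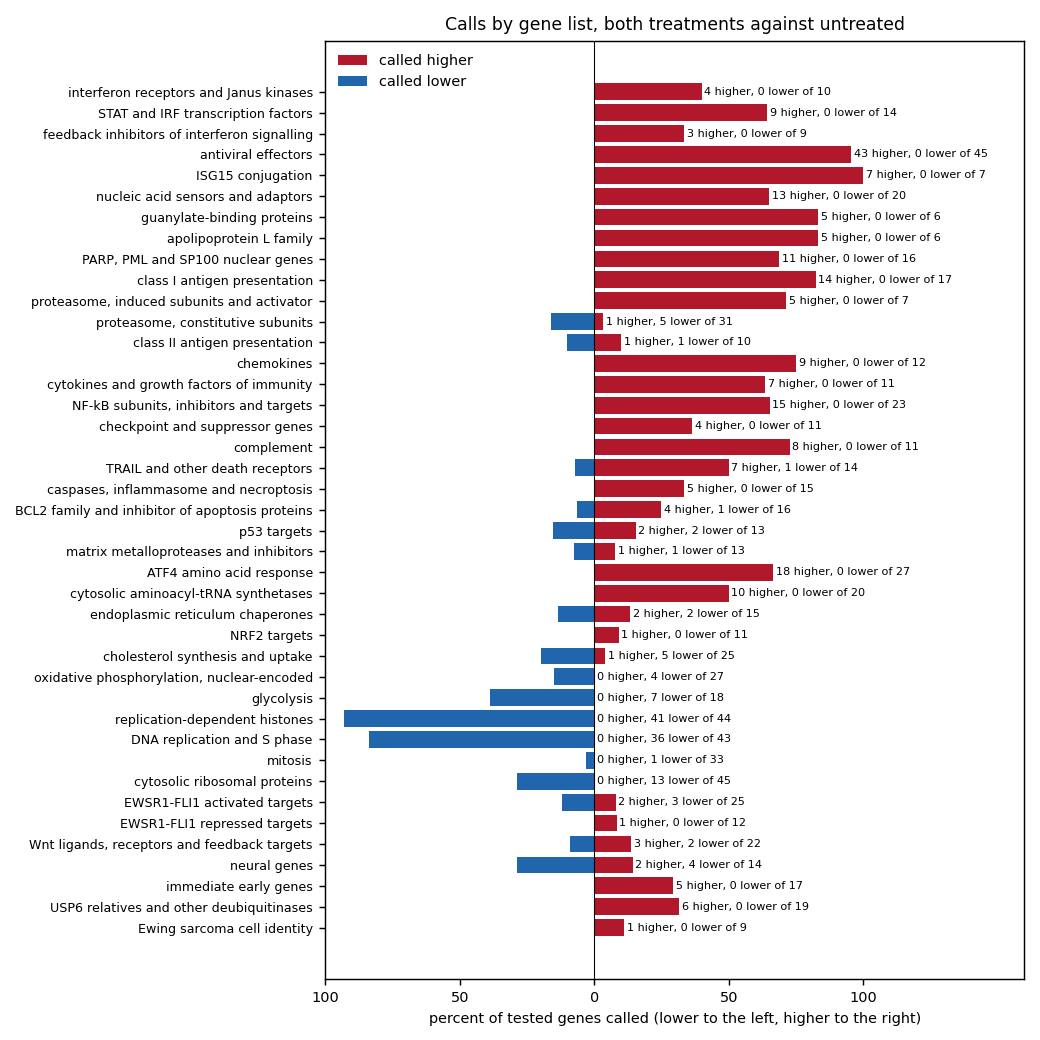
Percent of the tested genes of each list called higher (right) or lower (left) with both treatments against untreated cells, with the counts beside each bar. Antiviral, ISG15 conjugation, guanylate-binding, class I and chemokine genes are mostly higher, while histone and DNA replication genes are mostly lower; over all genes 7.12% were higher and 6.73% lower.

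Replication-dependent histones, whose messenger RNAs accumulate in S phase, made the gene list with the most members that fell. HIST1H4C stood at 519.8 and 574 CPM untreated, 191 and 223 with interferon, 421 and 415 with doxycycline and 140.3 and 155 with both. The combined libraries were the lowest, with a change of -1.89 ± 0.10 (edgeR adjusted p = 2.6e-07), or -1.75 after the correction for GC content and length. HIST1H2BD stood at 445 and 432 CPM untreated and 128 and 151 with both (-1.65 ± 0.10, corrected -1.69). HIST1H3B went from 371 and 364 to 96.3 and 114 CPM (-1.81 ± 0.12, corrected -1.35). Of 44 histone genes tested 41 fell, 0 rose and 3 were not called. Their median log2 change was -1.45, or -1.14 after the correction, under which 38 were lower. Their summed level was 10302 and 10210.4 CPM in the untreated libraries and 3463 and 4519.6 with both. Against interferon alone 15 of the 44 were lower (0.274% of all genes tested) and against doxycycline alone 29 (0.904%). Of the 15 lowest changes in the whole comparison 6 belonged to histone genes, HIST2H3D, HIST1H4A, HIST1H4L, HIST1H2AH, HIST1H4F and HIST1H4D, with changes between -2.50 and -2.01. After the correction HIST2H3D was at -1.59 and HIST1H2AH at -1.54, and without untreated and combined replicates 1 HIST2H3D was at -1.76. Histone genes are near-identical copies, so reads could be split among members and single values are uncertain. Most of their messenger RNAs end without a poly(A) tail, and libraries were made from total RNA, per the labels' protocols.

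Genes of DNA replication fell with them. MCM2, a subunit of the replicative helicase, stood at 629 and 572 CPM untreated, 423 and 423 with interferon, 448 and 506 with doxycycline and 284 and 352 with both. It fell, with a change of -0.92 ± 0.11 (edgeR adjusted p = 0.00034; corrected -0.76). MCM5, another subunit, had a change of -1.57 ± 0.20 (corrected -1.5). E2F1 and E2F2, transcription factors that open S phase, had changes of -1.38 ± 0.19 and -1.18 ± 0.14 (corrected -0.98 and -1.04). Of 43 genes tested 36 fell and 7 were not called, with a median of -0.69; after the correction 42 fell. Without the correction, those that fell numbered 22 with combined replicate 1 left out. Mitosis genes were different in count: 1 of 33, FOXM1, fell, at a median of -0.04. The count that fell was 13 after the correction, 0 without untreated and combined replicates 1 and between 0 and 2 over the libraries left out in turn. FOXM1, a transcription factor of the G2 genes, went from 152 and 166 to 110.2 and 129 CPM (-0.41 ± 0.10). FOXM1 lost its call without combined replicate 1, interferon replicate 1, interferon replicate 2, untreated replicate 1 or untreated replicate 2, with changes between -0.53 and -0.30 over the libraries left out.

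**Figure D5:**
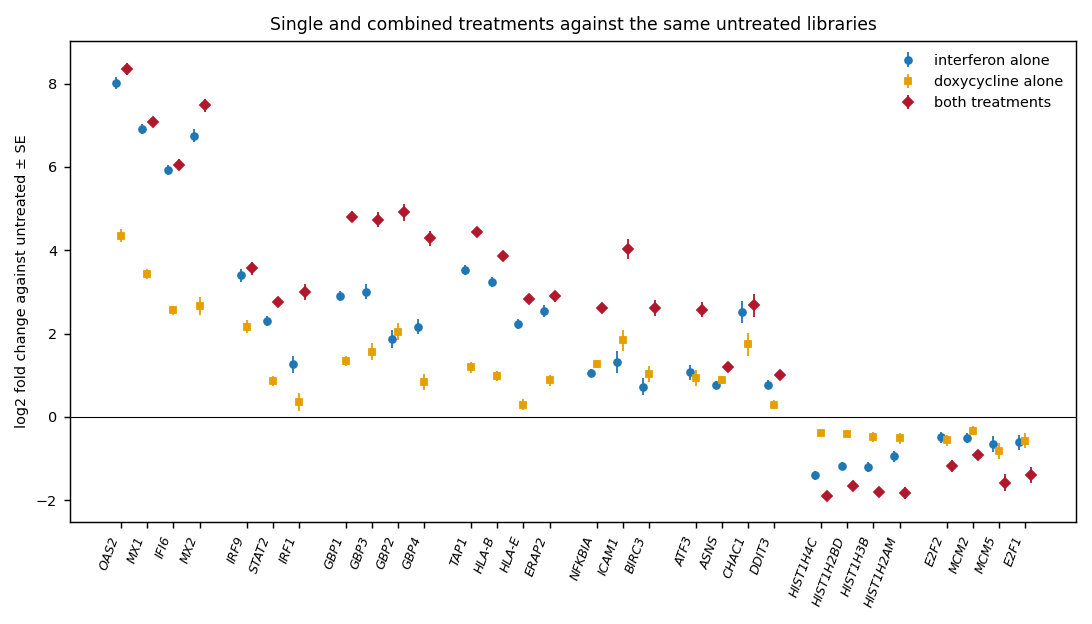
Log2 fold change ± SE against the same untreated libraries (vertical axis) with interferon alone, doxycycline alone and both treatments, for the named members of 8 gene lists with more than 3 untreated reads. Antiviral genes such as MX1 lie near their interferon value, guanylate-binding and NF-kB genes lie above both single treatments, and histone genes lie lowest with both.

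Changes among metabolic and ribosomal genes were small and moved with GC content or single libraries. Over all genes tested 7.12% were called higher and 6.73% lower. Of 45 cytosolic ribosomal protein genes 13 fell. Genes that fell numbered 22 after the correction, 0 without untreated and combined replicates 1, 1 with untreated replicate 1 left out, 3 with untreated replicate 2 left out, 4 with interferon replicate 1 left out, 3 with interferon replicate 2 left out and 0 with combined replicate 1 left out. RPLP0, of the ribosomal stalk, went from 733 and 738 to 511 and 578 CPM (-0.43 ± 0.09). RPLP0 lost its call without combined replicate 1, with changes between -0.52 and -0.34 over the libraries left out. Of 18 glycolysis genes 7 fell and 11 were not called, and after the correction 9 fell. Members that fell numbered 1 without untreated and combined replicates 1, 2 with untreated replicate 1 left out, 4 with untreated replicate 2 left out, 4 with interferon replicate 1 left out, 4 with interferon replicate 2 left out and 0 with combined replicate 1 left out. GAPDH went from 3533 and 3592 to 1899 and 2435 CPM, with the lower of these in the library with the strongest GC trend (-0.72 ± 0.13, corrected -0.52). GAPDH lost its call without combined replicate 1, with changes between -0.91 and -0.54 over the libraries left out. Of 27 nuclear genes of oxidative phosphorylation 4 fell. As for those that fell, their number was 7 after the correction, 1 without untreated and combined replicates 1, 1 with untreated replicate 1 left out, 2 with untreated replicate 2 left out, 2 with interferon replicate 1 left out, 2 with interferon replicate 2 left out and 1 with combined replicate 1 left out. Of 25 genes of cholesterol synthesis and uptake 5 fell and 1, the sterol carrier STARD4, rose (0.89 ± 0.15). The number that fell was 9 after the correction, 1 without untreated and combined replicates 1, 1 with untreated replicate 1 left out, 3 with untreated replicate 2 left out and 1 with combined replicate 1 left out. None of the 4 members with the smallest p that fell in either list held its call whichever library was left out. Whether the GC trend accounts for these changes was not tested.

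Most genes that mark the Ewing sarcoma state were not called. Over all genes tested 7.12% were called higher and 6.73% lower, and whether these lists differ from that was not tested. Of 25 targets that EWSR1-FLI1 activates 2 rose and 3 fell. Those that rose numbered 1 without untreated and combined replicates 1 and between 1 and 2 over the libraries left out in turn. The count that fell was 6 after the correction, 1 without untreated and combined replicates 1, 1 with untreated replicate 1 left out, 1 with untreated replicate 2 left out, 1 with doxycycline replicate 1 left out, 1 with doxycycline replicate 2 left out and 0 with combined replicate 1 left out. Of 12 targets that it represses 1 rose. Genes that rose numbered 4 after the correction, 0 without untreated and combined replicates 1 and between 0 and 1 over the libraries left out in turn. ID2, an inhibitor of differentiation factors, rose by 0.41 ± 0.08, close to its change with interferon alone (0.44 ± 0.08), and lost its call without untreated and combined replicates 1 at 0.41. Among 9 identity genes 1 rose, the nuclear receptor NR0B1, from 6.08 and 5.46 to 10.9 and 11.4 CPM (0.95 ± 0.20). NR0B1 lost its call without combined replicate 1 or untreated replicate 2, with changes between 0.87 and 1.03 over the libraries left out. Members that rose numbered between 0 and 1 over the libraries left out in turn. As for those that fell, their number was 1 after the correction. Of 14 neural genes 2 rose, 4 fell and 8 were not called. The number that rose was 0 after the correction, 0 without untreated and combined replicates 1 and between 0 and 2 over the libraries left out in turn. TUBB3, a neuronal tubulin, stood at 33.9 and 31.2 CPM untreated, 16.0 and 22.5 with interferon, 10.6 and 15.8 with doxycycline and 6.65 and 10.9 with both. It had a change of -1.90 ± 0.26 (edgeR adjusted p = 0.00077; corrected -1.57), and DPYSL3, which guides axon growth, one of -0.63 ± 0.10. Of 22 Wnt ligands, receptors and feedback targets 3 rose and 2 fell, and none of the 4 with the smallest p held its call whichever library was left out. Those that rose numbered 0 without untreated and combined replicates 1, 0 with untreated replicate 1 left out, 1 with untreated replicate 2 left out, 1 with interferon replicate 1 left out, 1 with interferon replicate 2 left out, 1 with doxycycline replicate 1 left out, 1 with doxycycline replicate 2 left out and 0 with combined replicate 1 left out. The count that fell was 4 after the correction, 1 without untreated and combined replicates 1 and between 0 and 2 over the libraries left out in turn.

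The remaining genes among the 15 lowest were of low level. CACNG4, a subunit of calcium channels, went from 1.90 and 1.79 to 0.202 and 0.217 CPM (-3.07 ± 0.49, edgeR adjusted p = 0.0022). STAB1, a scavenger receptor, went from 9.78 and 8.50 to 1.31 and 2.39 CPM (-2.31 ± 0.29, corrected -1.90). BGLAP, the bone protein osteocalcin, went from 3.8 and 2.95 to 0.706 and 0.760 CPM (-2.18 ± 0.36, corrected -1.63). BGLAP lost its call without untreated and combined replicates 1 (-1.94). NDUFS7, GNB1L, C14orf80, TMEM100 and MIR1292 complete the 15, and each lost its call without 1 or more libraries. NDUFS7 lost its call without combined replicate 1 or untreated replicate 1, with changes between -2.49 and -1.42 over the libraries left out. GNB1L lost its call without combined replicate 1 or untreated replicate 1, with changes between -2.39 and -1.66 over the libraries left out. C14orf80 lost its call without combined replicate 1 or untreated replicate 1, with changes between -2.88 and -1.37 over the libraries left out. TMEM100 lost its call without combined replicate 1, combined replicate 2, interferon replicate 2 or untreated replicate 2, with changes between -2.24 and -1.60 over the libraries left out. MIR1292 lost its call without combined replicate 1, combined replicate 2, interferon replicate 1, interferon replicate 2, untreated replicate 1 or untreated replicate 2, with changes between -2.30 and -1.66 over the libraries left out. After the correction NDUFS7 was at -1.36 and C14orf80 at -1.20, and MIR1292 lost its call at -0.88. All 5 lost their calls without untreated and combined replicates 1.

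How far the combination went beyond a single treatment could be tested directly, since both single groups were sequenced. With both treatments 156 genes were higher and 40 lower than with interferon alone (1.34% of those tested), and 354 were higher and 132 lower than with doxycycline alone (3.33%). Of the 1040 genes that rose against untreated cells 154 (14.8%) were also higher than with interferon alone, 334 (32.1%) than with doxycycline alone and 115 (11.1%) than with each. For 667 (64.1%) neither direct test passed, which does not show that the levels were equal. Of the 983 that fell, 37 were lower than with interferon alone, 114 than with doxycycline alone and 17 than with each. These counts share the combined libraries. The number of differences from interferon alone was 57 with interferon replicate 1 left out, 46 with interferon replicate 2 left out and 75 with combined replicate 1 left out. The number of differences from doxycycline alone was 321 with doxycycline replicate 1 left out and 290 with doxycycline replicate 2 left out. The test of the interaction asks whether the log2 change with both differs from the sum of the single changes, and it called 25 genes (0.171%), 24 with a combined change below that sum (0.164%) and 1 above (0.00685%). At an unadjusted p under 0.05 287 genes passed. The number of interaction calls was 15 with untreated replicate 1 left out, 11 with untreated replicate 2 left out, 9 with interferon replicate 1 left out, 14 with interferon replicate 2 left out and 15 with doxycycline replicate 1 left out.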

How the data were processed

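RNA-seq read counts were analysed for 8 libraries. Trizol-extracted RNA was made into stranded total RNA libraries, per the labels' protocols. The deposited table holds counts per transcript, whole numbers that the authors left unnormalized. CASAVA 1.8.2, edgeR and hg19 are named, per the submitters' processing notes; what each was used for, which aligner ran and how strand was treated in counting is not given in the sources used here, so reads of overlapping antisense genes cannot be told apart.

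Of 34917 transcripts, the one with the highest total per symbol was kept, since rows of 1 gene mostly share reads (30.36% of symbols had several; chosen rows held 57.07% of all reads). Counts were tested with edgeR 4.0.16 (R 4.3.3): default filter, trimmed mean of M values normalisation, quasi-likelihood F test, 1 mean per group, all 8 libraries in 1 fit (4 residual degrees of freedom, common biological coefficient of variation 0.097), with Benjamini-Hochberg adjustment over 14601 genes and a threshold of 0.05. CPM were computed from counts and effective library sizes. Changes are log2 fold changes ± SE (SE from the F statistic). For 0 untreated reads a bound against 3 reads was given, and for 1 to 3 reads a ratio with an exact 95% binomial interval; both cover counting error only.

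Alternatives were relative log expression size factors, DESeq2 1.42.0, no filter or a stricter one (mean of 1 CPM and 50 reads), the replicate number as a block, a loess correction for GC content and length (span 0.3; GC known for 99.1% of tested genes), summed rows, a minimum of 2-fold, only the groups compared, and leaving out each library. The fit was tested on simulated data. Where 1 library of a group remained, its spread was taken to equal that of the other groups.

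Members, gene lists and tests were chosen with earlier results of these data known. Named were USP6, the 15 highest and 15 lowest changes among called genes that averaged 1 CPM or more and had equal sign in both same-numbered pairs, leaving out pseudogenes, and from each of the gene lists described up to 4 members with the smallest p, with TRAIL, JAK-STAT and chemokine genes always added; the text names 117 of these 201 genes, and the others, most of them with calls that did not hold without each library, are given in counts only. Promoters came from the RefSeq table for 11372 tested genes; gene symbols matched the annotation in 22128 cases. No coordinates of the authors' build are given.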

Additional observations from a re-analysis of the deposited data

Results flagged for a closer look

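For 11 of the named genes the test of the interaction passed, which means that the log2 change with both treatments differed from the sum of the changes with interferon alone and doxycycline alone. The single and combined changes share the untreated libraries. In 10 of the 11 the combined change lay below the sum. The gap was -4.0 for OAS2 (edgeR adjusted p = 2.1e-06), with single changes of 8.01 ± 0.14 for interferon and 4.35 ± 0.16 for doxycycline and a combined change of 8.36 ± 0.14. It was -3.25 for MX1 (edgeR adjusted p = 2.1e-06), -2.42 for IFI6, -2.36 for XAF1, -1.99 for IRF9, -1.94 for MX2, -1.87 for HERC6, -1.11 for DDX58, -0.95 for PARP9 and -0.77 for SP110. These are effectors, factors and sensors of the interferon response that each single treatment had already raised. In WARS, a tRNA synthetase, the combined change lay above the sum, by 1.07 (edgeR adjusted p = 0.041), with single changes of 0.51 ± 0.12 and -0.03 ± 0.12 and a combined change of 1.55 ± 0.12. Cells given doxycycline alone may have had it for another length of time, which the labels do not state, and such a difference and an interaction cannot be told apart.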

How the results depend on the processing

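With 2 libraries per group, the number of calls depended on single libraries. Leaving out each library in turn gave between 712 and 2589 genes called against untreated cells (523 to 1200 higher, 189 to 1389 lower), 46 to 265 against interferon alone, 290 to 480 against doxycycline alone and 9 to 20 for the interaction. Without untreated replicate 1 and combined replicate 1, an alternative chosen after seeing the data, 934 were called (594 higher, 340 lower). The correction for GC content and length gave 3136 (1980 lower), 589, 1482 and 49 calls, and with the replicate block as well 3392 (2154 lower), 779, 1648 and 53. A minimum of 2-fold left 235 (206 higher, 29 lower), 36, 140 and 7. DESeq2 gave 302 calls against interferon alone and 42 for the interaction. The replicate block by itself gave 1705, 173, 408 and 17 calls, and labels give no reason to pair equal numbers. Same-numbered untreated and combined libraries deviated in opposite directions (r = -0.338), and with crossed numbers, also chosen after seeing the data, 1638 genes were called. Of 171 called genes that the naming rule gives, 114 kept the call without each library in turn, 160 under the GC correction, 163 under the block and 121 without untreated replicate 1 and combined replicate 1. Among the 115 of them named in the text 106 kept it without each library in turn, and among the 56 others 8 did. JAK1, not called, changed sign under the GC correction (-0.016), with the block as well (-0.013) and without untreated replicate 1 and combined replicate 1 (-0.035). The cause of these shifts was not tested. The interaction could not be fitted with only the groups compared. Genes with few untreated reads have folds limited by depth.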
